A study of Mus musculus with 6 samples.

Results

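The 7 genes described here are Il12b, Ebi3, Il27, Il6, Il15, Il1b and Il18, cytokine genes through which myeloid cells act on T cells, out of 32285 genes in the deposited matrices. They were chosen by name, and all 7 were present in both matrices and had UMIs on both days. Intracranial tumors of CT2A, a mouse glioma line, were grown in wild-type C57BL/6J mice of 6 to 8 weeks, and CD3+ T cells positive for CD4 or CD8 were taken from them by cell sorting. The groups were an early day, day 13, with 16 mice in pools of 4, and a late day, day 19, with 4 mice. Gene expression, surface antibody tags and T cell receptor (TCR) contigs were measured with 10x Genomics 5' single-cell chemistry in 1 capture per day. No test between days was therefore possible: no p-value is given, intervals cover counting error only, and day, capture and the make-up of the recovered cells cannot be told apart.

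Interleukin-12, a pair of the chains p40 (Il12b) and p35 (Il12a), drives interferon-gamma production in T cells, and dendritic cells are a classical source of it. Interleukin-27 pairs p28 (Il27) with Ebi3, and Ebi3 is also made by regulatory T cells. Interleukin-15, carried to T cells on its receptor chain Il15ra, sustains CD8 T cells, whereas interleukin-1 beta and interleukin-18 are released after cleavage by caspase-1 and interleukin-6 acts through Il6ra and Il6st.

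Although the sort was for T cells, many droplets lay outside the TCR contig tables. Of the barcodes with at least 5000 gene UMIs (unique molecular identifiers, each 1 captured molecule) and at most 10% mitochondrial UMIs, 4246 of 8878 at day 13 and 1452 of 4667 at day 19 had no contig, and 59.3% of the former held a UMI of the myeloid gene Lyz2. These were divided by 5 marker genes at 2 or more UMIs, a barcode being allowed in several groups. Fscn1 marks mature dendritic cells (844 barcodes at day 13 and 256 at day 19), Cd209a type 2 dendritic cells (347 and 133), Gpnmb lipid-handling macrophages (535 and 95), Vcan monocytes (134 and 23) and P2ry12 microglia (698 and 348). None of the 5 was reached in 2414 and 811 barcodes. Each marker belongs to the list of its cell type, so the lists describe the groups and do not test them. The number of list genes over 2-fold higher in the group than in all barcodes without a contig was, at day 13 and day 19, 6 and 5 of 6 for Fscn1, 6 and 3 of 6 for P2ry12, 4 and 4 of 7 for Gpnmb, 3 and 4 of 6 for Cd209a and 3 and 3 of 6 for Vcan. The mature dendritic list summed to 2884 CPM (counts of UMIs scaled to 1e6 gene UMIs) in Fscn1 barcodes and 1032 CPM in all of them at day 13. The groups were not pure. A UMI of Cd3d, Cd3e or Cd3g was present in 76.0% and 76.4% of the barcodes without a contig. Of the Fscn1 barcodes at day 13, 365 also reached 2 UMIs of P2ry12, and their microglia list stood at 2005 CPM. Of the neutrophil list, Retnlg was at 0 on both days, and the list summed to 28.1 and 21.9 CPM.

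All 7 genes were more than 2-fold higher in barcodes without a contig than in CD8 T cell barcodes with a contig, on both days. The background was 17.6% of all genes tested at day 13 and 15.3% at day 19, and the median log2 ratio of the 7 genes was 1.96 and 2.38 against 0.00 and 0.04 over all genes. Levels in CD4 contig barcodes lay closer to those without a contig. At day 13 Il12b stood at 16.9 CPM in CD4 contig barcodes and 26.7 without a contig. In the same order Il15 stood at 23.5 and 30.6, Il1b at 442 and 691 and Il18 at 18.4 and 22.4. At day 19 Il12b stood at 10.8 and 11.6 CPM and Il27 at 2.92 and 5.33. Ebi3 on both days and Il6 at day 19 (1.17 against 0.884 CPM) were higher in CD4 contig barcodes. Contig barcodes without UMIs of myeloid markers held less. In the 2303 CD8 contig barcodes of day 13 without a UMI of the 5 markers or Lyz2, Il12b stood at 0.782 CPM, Il27 at 0.244, Il6 at 0.0977, Il15 at 1.51 and Il18 at 1.07. Il1b was at 18.2 CPM there, and Ebi3 at 2.10. RNA outside cells was sizeable for some genes: in 63363 barcodes of 10 to 100 UMIs at day 13, Il12b stood at 19.7 CPM, Il1b at 332 and Ebi3 at 23.0, and in 69869 such barcodes at day 19 Ebi3 stood at 41.4 CPM and Il12b at 7.05.

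**Figure D1:**
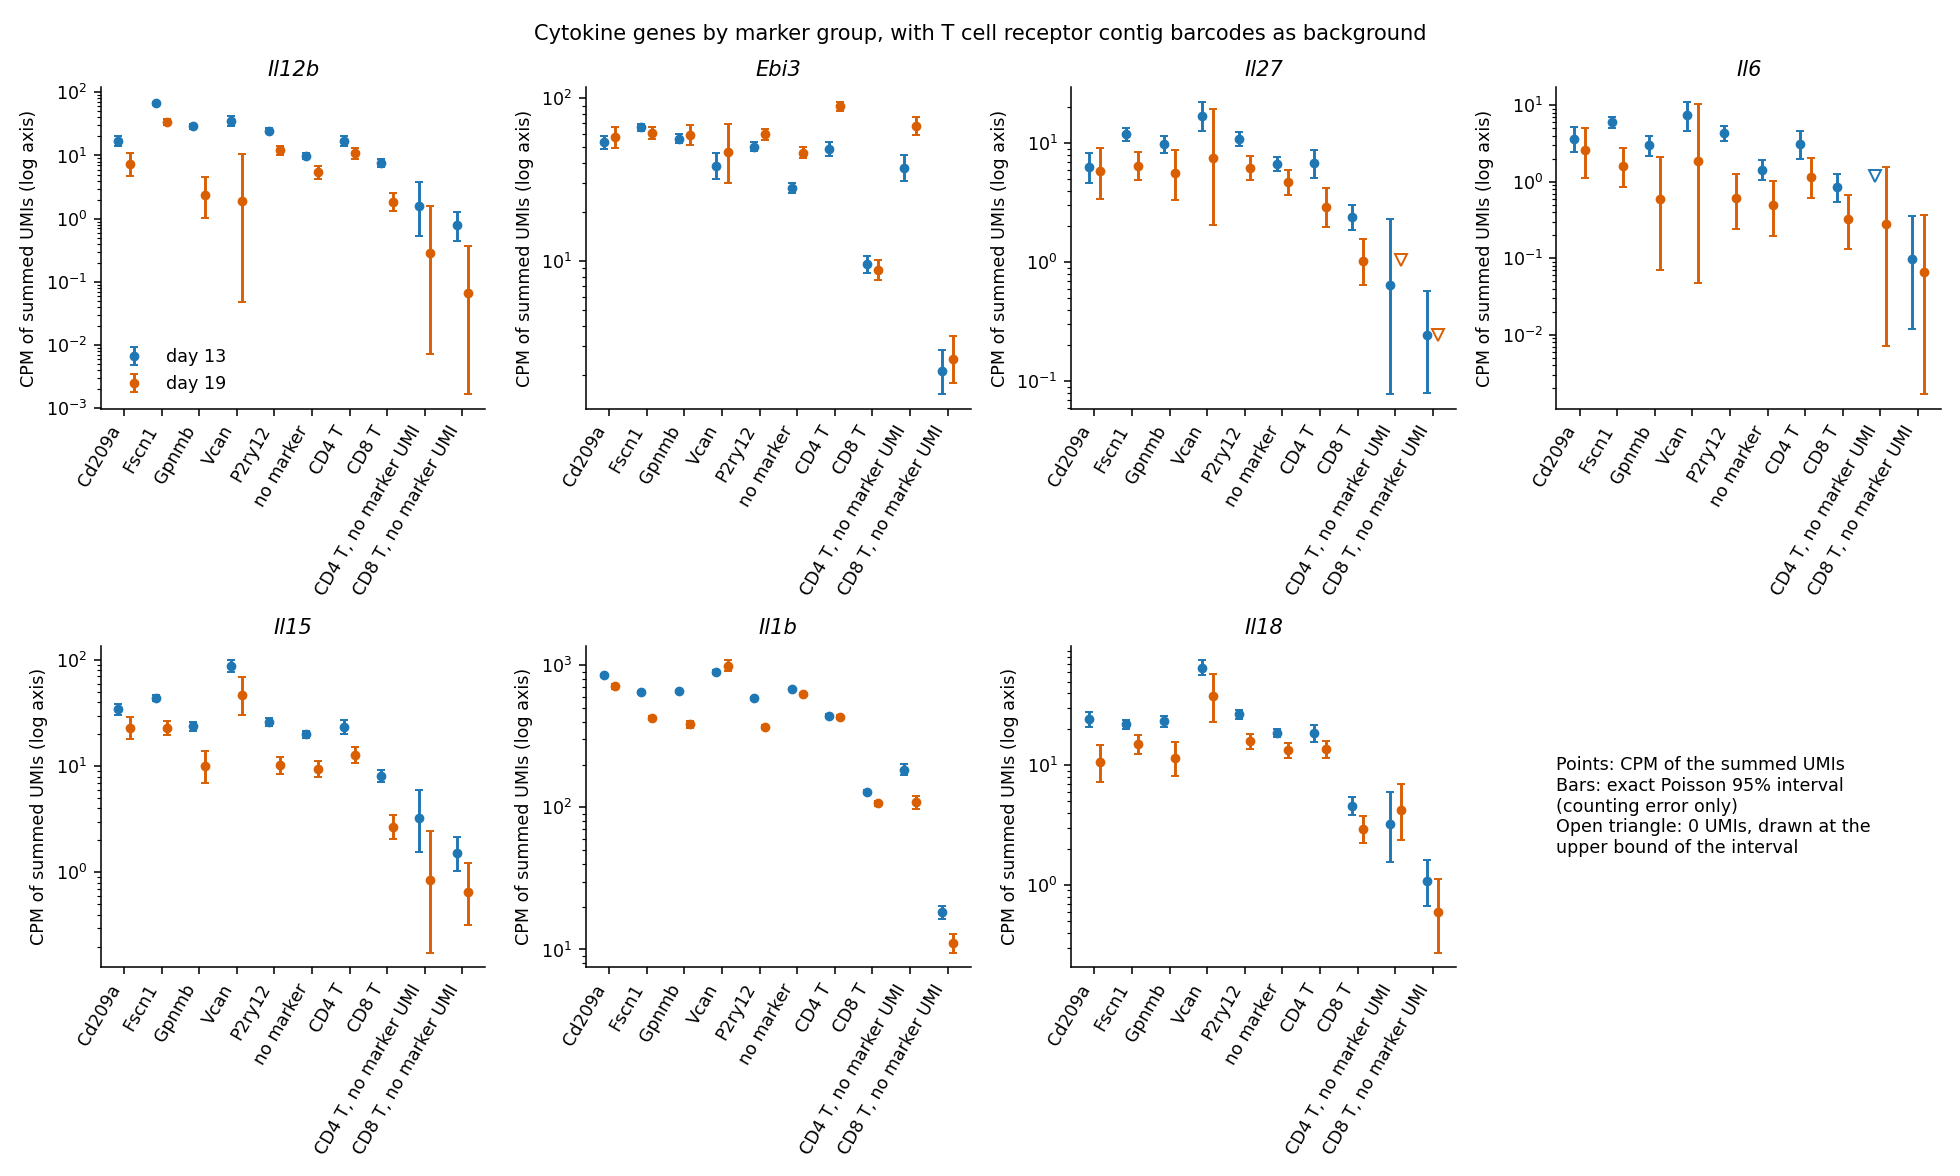
Levels of the 7 cytokine genes (CPM of the summed UMIs, log axis) in each marker group and in contig barcodes of T cells, by day; bars are exact Poisson 95% intervals and open triangles mark 0 UMIs at the upper bound. Il12b is highest in Fscn1 barcodes on both days (67.1 and 33.9 CPM), whereas Il15 and Il18 are highest in Vcan barcodes (88.0 and 65.3 CPM at day 13).

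Il12b, the p40 chain, was concentrated in the Fscn1 barcodes. At day 13 its level was 67.1 CPM there (95% interval 63.8 to 70.5), 35.5 in Vcan, 28.9 in Gpnmb, 24.9 in P2ry12, 16.9 in Cd209a and 9.91 CPM in barcodes with none of the 5 markers. The intervals of the Vcan, Gpnmb and P2ry12 levels overlapped their neighbours, and the Fscn1 level lay apart from all of them. The intervals take each UMI as independent and do not measure the spread between barcodes, here and in the orders below. The top 10 Vcan barcodes held 98.2% of the Il12b UMIs of their group, and the top 10 Fscn1 barcodes 24.0%. The order at day 19 began with Fscn1 at 33.9 CPM (30.0 to 38.1), followed by P2ry12 at 12.1, Cd209a at 7.39, Gpnmb at 2.35 (8 UMIs) and Vcan at 1.88 (1 UMI). After thinning each barcode to 5000 gene UMIs, Il12b was detected in 17.1% of Fscn1 barcodes at day 13 (exact binomial 95% interval 14.6% to 19.8%) and in 10.55% at day 19 (7.07% to 14.97%). The unthinned shares were 28.2% and 19.9%, at median depths of 23616.5 and 32518.5 UMIs. CD8 contig barcodes, which should lack the gene, gave 0.879% and 0.389% after thinning and 1.22% and 0.778% before it, at median depths of 7449 and 9846.5 UMIs.

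Barcodes that held a single marker gave a sharper picture. With Fscn1 as the only marker, Il12b stood at 109 CPM at day 13 and 48.3 at day 19. With Vcan alone it was 1.66 CPM at day 13 (2 UMIs) and 0 UMIs at day 19, with Cd209a alone 0.761 (3 UMIs) and 3.06 (5 UMIs), with Gpnmb alone 10.9 and 0.889 (1 UMI), and with P2ry12 alone 4.66 and 3.32 CPM. With each of the other markers alone, Il12b thus lay below its level in free RNA on both days. Few barcodes carried most of the UMIs. At day 13, 64 barcodes with 10 or more Il12b UMIs held 66.2% of its 2013 UMIs, and the highest had 58. Of the 64, 50 were Fscn1 barcodes, which made up 19.9% of all barcodes without a contig. A UMI of Ccr7, the chemokine receptor of migrating dendritic cells, was in 61 of the 64. It was also in 44.7% of all barcodes without a contig and in 43.3% of CD8 contig barcodes. At day 19, 8 barcodes with 10 or more Il12b UMIs held 38.4% of 380 UMIs.

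Il12b stood out in the barcodes with the most Fscn1 UMIs, with graded steps at day 13 and a single step at day 19. At day 13 the thinned share was 0.924% in 3137 barcodes without Fscn1, 3.02% at 1 UMI, 3.13% at 2 to 4, 7.75% at 5 to 9 and 25.9% (22.0% to 30.0%) in 491 barcodes with 10 or more. The day-19 values were 0.961%, 1.94%, 2.75%, 3.45% (29 barcodes) and 19.5% (12.8% to 27.8%, 118 barcodes). The levels of day 19 had no graded rise below that step, at 4.73, 1.89, 7.14, 4.54 and 64.7 CPM. In barcodes without a P2ry12 UMI the day-19 shares were 1.05%, 4.08%, 0%, 0% and 22.0%, the zeros in 19 and 6 barcodes. Il15 was detected in 32.0% and 21.2% of the barcodes at 10 or more Fscn1 UMIs and in 10.0% and 6.24% of those without Fscn1, with no steady step between. Il1b went from 43.9% to 68.4% at day 13 and from 43.4% to 57.6% at day 19. Median depth moved with these steps, from 10851 to 25405 UMIs at day 13 before thinning, and beyond thinning its part in the result was not tested. Within the Fscn1 barcodes, those with a Ccr7 UMI (645 at day 13, 188 at day 19) had Il12b at 77.7 and 38.9 CPM, against 11.03 and 11.4 without one. The log2 ratios were 2.82 (2.37 to 3.31) and 1.77 (1.07 to 2.58), and Il18 went the other way, at 19.8 against 33.1 CPM at day 13 (log2 ratio -0.74). At day 13 a Cd3 UMI was in 82.9% of the Fscn1 barcodes with Ccr7 and in 77.01% of all Fscn1 barcodes. Their median depths were 26740 and 23616.5 UMIs. Among Fscn1 barcodes of day 13 without a Cd3 UMI, Il12b stood at 158 CPM with Ccr7 (170 UMIs) and at 92.8 over all (174 UMIs). The part of depth and of T cell RNA in the split by Ccr7 was not tested.

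**Figure D2:**
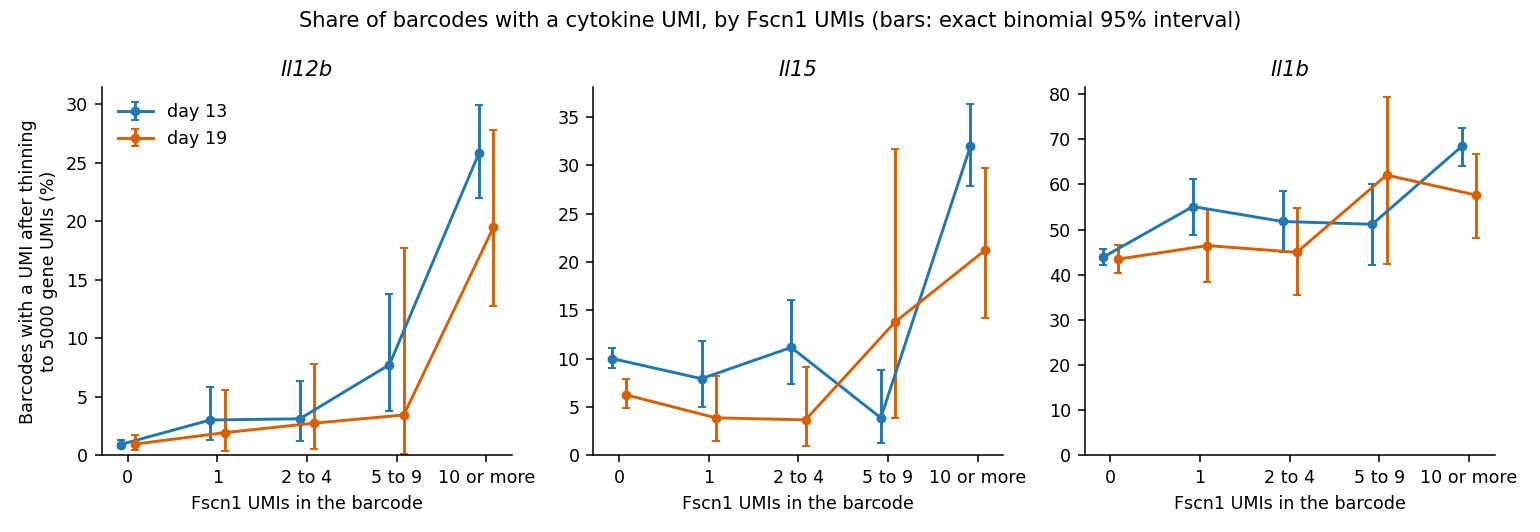
Share of barcodes with a UMI of Il12b, Il15 or Il1b after thinning to 5000 gene UMIs (y axis, %), by the number of Fscn1 UMIs in the barcode (x axis) and day; bars are exact binomial 95% intervals. The Il12b share is 25.9% at day 13 and 19.5% at day 19 with 10 or more Fscn1 UMIs, and under 1% without Fscn1.

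The partner chain of interleukin-12 was nearly absent from the RNA. Il12a had 50 UMIs in 37 barcodes at day 13 (0.663 CPM) and 31 UMIs at day 19 (0.945 CPM), of which 12 and 2 lay in Fscn1 barcodes. Il12b and Il12a were found together in 2 barcodes at day 13, with 2.66 expected from the shares of the 2 genes, and in 1 at day 19. Il23a, which pairs with p40 to form interleukin-23, had 45 and 34 UMIs. At this depth co-detection of p40 with either partner could not be resolved.

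Promoters are shown for 4 genes because Il12b and Il6 stood higher in Fscn1 than in Gpnmb barcodes at day 13 while Ebi3 and Il1b did not differ 2-fold. RefSeq on GRCm38.p6, the assembly of mm10, gave promoters for 5 of the 7 genes, and Il15 and Il27 had no entry. The 250 bases before the start site are given 5' to 3' on the gene's strand, with motif matches in capitals. They lie at chr11:44399813-44400062 (Il12b, plus strand), chr5:30012864-30013113 (Il6, plus), chr17:55952373-55952622 (Ebi3, plus) and chr2:129371140-129371389 (Il1b, minus).
Il12b: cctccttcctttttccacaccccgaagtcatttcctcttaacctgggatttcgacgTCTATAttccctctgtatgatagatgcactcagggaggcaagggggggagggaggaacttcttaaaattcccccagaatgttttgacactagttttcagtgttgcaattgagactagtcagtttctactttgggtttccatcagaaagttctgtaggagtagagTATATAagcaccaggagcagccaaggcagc
Il6: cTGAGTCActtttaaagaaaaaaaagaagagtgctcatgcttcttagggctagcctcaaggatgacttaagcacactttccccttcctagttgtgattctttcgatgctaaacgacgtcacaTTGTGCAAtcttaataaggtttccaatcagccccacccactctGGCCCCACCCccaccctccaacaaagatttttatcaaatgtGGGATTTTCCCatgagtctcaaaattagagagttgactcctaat
Ebi3: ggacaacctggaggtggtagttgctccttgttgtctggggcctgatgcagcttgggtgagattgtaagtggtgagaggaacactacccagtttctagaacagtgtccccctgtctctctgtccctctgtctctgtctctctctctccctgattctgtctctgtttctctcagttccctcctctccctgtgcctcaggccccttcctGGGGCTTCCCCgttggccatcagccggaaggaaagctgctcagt
Il1b: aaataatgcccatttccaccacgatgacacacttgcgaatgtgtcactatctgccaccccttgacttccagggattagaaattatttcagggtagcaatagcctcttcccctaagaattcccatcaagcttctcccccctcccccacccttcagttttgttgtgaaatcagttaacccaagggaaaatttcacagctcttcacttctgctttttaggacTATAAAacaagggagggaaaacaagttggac
The motifs, searched on both strands, were NF-kB (in 45.8% of 32851 promoters of this length), AP-1 (TGANTCA, 6.75%), C/EBP (TTGNGCAA, 2.61%), an interferon regulatory factor pair (2.98%) and a TATA box (TATANA, 22.6%). Il6 held NF-kB matches at 44 to 34 bases (overlapping on the strands) and 85 to 76 bases before the start, a C/EBP match at 128 to 121 and an AP-1 match at 249 to 243. Ebi3 held overlapping NF-kB matches at 44 to 34 bases. Il12b held TATA matches at 30 to 25 and 194 to 189 bases and Il1b one at 31 to 26. Neither held a match to this NF-kB pattern in this window, and sites that differ from its letters were not searched for. Il18, at chr9:50554450-50554699, held only TATA matches. None of the 5 promoters held the interferon regulatory factor pair.

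Ebi3, the shared chain of interleukin-27, was spread far more evenly. At day 13 it stood at 66.5 CPM in Fscn1 (63.1 to 69.9), 56.4 in Gpnmb, 53.5 in Cd209a, 50.3 in P2ry12, 38.4 in Vcan and 28.1 CPM in barcodes with none of the markers. The day-19 levels were 61.3, 59.4, 57.5, 59.9, 46.9 and 46.2 CPM, and each of the 5 marker groups overlapped its neighbour in that order. Free RNA stood at 41.4 CPM on that day, a level close to those of the day-19 groups. The thinned share of Fscn1 barcodes with Ebi3 was 25.8% and 23.0%, against 2.50% of CD8 contig barcodes on both days. Ebi3 was also present in CD4 contig barcodes, described at the end.

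Il27, the p28 chain, was low everywhere and scattered: of the 458 barcodes with it at day 13, 75.1% had exactly 1 UMI. Vcan barcodes stood highest at 16.97 CPM (12.7 to 22.2), followed by Fscn1 at 11.9, P2ry12 at 10.9, Gpnmb at 9.81 and Cd209a at 6.25. Only the last lay apart from its neighbour. At day 19 the levels were 7.50 (4 UMIs), 6.49, 6.22, 5.58 and 5.78 CPM, and all neighbours overlapped. In the 56 Vcan barcodes of day 13 without a Cd3 UMI, Il27 stood at 46.0 CPM (26 UMIs), and in the 14 such barcodes of day 19 it had 0 UMIs. In the 78 Vcan barcodes of day 13 with a Cd3 UMI it stood at 10.6 CPM (27 UMIs), level with P2ry12 (10.6) and Fscn1 (10.3). Il27 and Ebi3 shared 294 barcodes at day 13, 1.78 times the 165 expected from the shares of each gene, and 99 at day 19, 1.44 times the 68.6 expected. Among barcodes without a Cd3 UMI at day 13, the 45 shared barcodes were 1.20 times the 37.6 expected. Depth is shared by both genes of a pair, and its part in these ratios was not tested.

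Il6 was scarce, with 247 UMIs at day 13 and 29 at day 19. At day 13 Vcan barcodes stood at 7.36 CPM (23 UMIs), Fscn1 at 5.99 (136 UMIs), P2ry12 at 4.31, Cd209a at 3.64 and Gpnmb at 2.98 CPM, with overlap between all neighbours. Fscn1 barcodes held 55.1% of the Il6 UMIs of day 13 and 30.1% of all gene UMIs. The barcode with the most Il6, 11 UMIs, was the only one with 2 or more UMIs of Cpa3, a mast cell protease, and it held 53576 gene UMIs. It also reached the Gpnmb and P2ry12 minimum, and gave 11 of the 48 Il6 UMIs of the Gpnmb group. At day 19 Cd209a barcodes stood at 2.57 CPM (8 UMIs), Fscn1 at 1.59 (13 UMIs), and Vcan, P2ry12 and Gpnmb barcodes had 1, 7 and 2 UMIs.

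Il15 was highest in the Vcan barcodes on both days when all barcodes of a group were summed. At day 13 its level was 88.0 CPM there (77.9 to 99.1), 43.8 in Fscn1, 34.4 in Cd209a, 26.0 in P2ry12, 23.8 in Gpnmb and 19.9 CPM with none of the markers. The first 3 lay apart from each other and from the rest. At day 19 the values were 46.9 (30.4 to 69.2), 22.9, 23.1, 10.3, 9.99 and 9.51 CPM, with Vcan apart and Cd209a overlapping Fscn1. The thinned share of barcodes with Il15 was 39.6% in Vcan and 22.2% in Fscn1 at day 13, 21.7% and 12.9% at day 19, and 2.23% and 0.722% in CD8 contig barcodes. Without a Cd3 UMI, Vcan barcodes reached 204 CPM at day 13 (115 UMIs, 56 barcodes) and 114 CPM at day 19 (20 UMIs, 14 barcodes), where the interval of 69.5 to 176 overlapped Cd209a (74.0) and Fscn1 (71.1). With a Cd3 UMI, Vcan stood at 62.5 and Fscn1 at 38.7 CPM at day 13, but at day 19 Vcan stood at 13.99 CPM (5 UMIs, 9 barcodes), below Fscn1 at 19.6, with overlapping intervals. A Cd3 UMI was present in 58.2% and 39.1% of Vcan and in 77.01% and 81.3% of Fscn1 barcodes, and the part of that difference in the order was not tested. Il15ra, the chain that presents Il15, followed the same groups at day 13, with 54.7 CPM in Vcan, 48.7 in Fscn1 and 27.1 in Gpnmb. Il15 and Il15ra shared 616 barcodes at day 13, 1.78 times the 346 expected, and the ratio was 1.78 also among barcodes without a Cd3 UMI (148 against 83.1).

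Il1b was abundant in every group without a contig. Vcan and Cd209a barcodes stood at 894 and 849 CPM at day 13, with overlapping intervals, followed by Gpnmb at 660, Fscn1 at 644 and P2ry12 at 583 CPM. At day 19 Vcan stood at 991, Cd209a at 709, Fscn1 at 426, Gpnmb at 383 and P2ry12 at 367 CPM, and barcodes with none of the markers at 679 and 628 CPM on the 2 days. Without a Cd3 UMI, barcodes with none of the markers stood highest, at 1526 and 1666 CPM. Vcan then stood at 1388 and 1150 and Cd209a at 1228 and 1131 CPM. Of the Il1b UMIs, 93.7% and 94.0% were in barcodes with 10 or more, 1507 and 500 in number. Free RNA reached 332 and 245 CPM. The antagonist and decoy receptor of this family went different ways: Il1rn, the receptor antagonist, stood at 1006 CPM in Vcan and 307 over all barcodes at day 13, and Il1r2, the decoy receptor, at 39.7 and 70.6 CPM.

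Il18, also released after caspase-1 cleavage, was highest in Vcan barcodes, at 65.3 CPM at day 13 (56.7 to 74.9) and 37.5 CPM at day 19 (22.9 to 58.0). The other 4 marker groups stood between 21.9 and 26.6 CPM at day 13 and between 10.6 and 15.8 CPM at day 19. The Vcan group lay apart on both days and the others overlapped their neighbours. Split by Cd3 it was the highest of the marker groups with a Cd3 UMI on both days (48.9 and 33.6 CPM) and without one at day 13 (140 CPM), while at day 19 Vcan barcodes without one (45.5 CPM, 8 UMIs) overlapped P2ry12 (43.3 CPM). The day-19 value with a Cd3 UMI rests on 12 UMIs in 9 barcodes. Its interval of 17.4 to 58.7 CPM overlapped that of Fscn1 (12.2 to 17.8). The thinned share was 36.6% in Vcan and 10.3% in Fscn1 barcodes at day 13, against 1.55% in CD8 contig barcodes. Il18bp, the binding protein that blocks Il18, was highest in Gpnmb barcodes, at 97.9 CPM at day 13 and 101 at day 19, against 66.6 and 52.5 CPM in Vcan. In the barcodes without a Cd3 UMI at day 13, Il12b and Il18 were found together in 4, where 14.2 were expected from their shares, and over all barcodes in 110, where 74.1 were expected.

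Mature dendritic and macrophage barcodes were compared after leaving out those with both markers. At day 13, 699 Fscn1 and 390 Gpnmb barcodes were compared, and 3 of the 7 genes were at least 2-fold higher on the Fscn1 side and 0 lower, beside a background of 7.73% of all genes higher and 2.57% lower. Il12b stood at 72.8 against 13.9 CPM (log2 ratio 2.39, interval 2.14 to 2.66), Il6 at 6.59 against 2.04 (1.69, 1.00 to 2.46) and Il15 at 49.6 against 20.7 (1.26, 1.04 to 1.49). Ebi3 (0.45), Il27 (0.43), Il1b (-0.05) and Il18 (-0.14) differed less. Il15 stood at 0.88 when barcodes with both markers were kept. The median was 0.45 for the 7 genes and 0.06 for all genes. Il15ra was higher on the Fscn1 side, at 53.0 against 20.4 CPM (1.38), and Il18bp stood at 61.4 against 112 CPM (-0.86). None of the 7 genes of the processing list, which holds caspase-1, gasdermin D and inflammasome sensors, differed 2-fold. At day 19 only 66 Gpnmb barcodes remained beside 227 with Fscn1. There 2 of 6 genes with enough UMIs were at least 2-fold higher, beside 4.89% of all genes: Il12b at 38.9 against 0.909 CPM (271 against 2 UMIs, log2 ratio 5.42, 3.55 to 8.47, and 2.63 to 6.21 over the alternatives) and Il15 at 24.1 against 6.82 (1.82, 1.06 to 2.69). Il6 had 11 and 0 UMIs. Of the processing list, Nlrc4 was at least 2-fold lower on the Fscn1 side at day 19. Il15ra and Il1a were at least 2-fold higher there and Il18bp at least 2-fold lower.

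Monocyte and macrophage barcodes were compared in the same way, and Il6 and Il15 were again among the genes that differed at day 13. At day 13, 117 Vcan and 518 Gpnmb barcodes were compared, and 4 of the 7 genes were at least 2-fold higher on the Vcan side, beside 3.13% of all genes. Il15 stood at 93.8 against 22.3 CPM (log2 ratio 2.07, 1.83 to 2.32), Il18 at 72.1 against 22.9 (1.66, 1.39 to 1.92), Il6 at 8.28 against 2.96 (1.48, 0.66 to 2.26) and Il27 at 20.1 against 10.0 (1.00, 0.51 to 1.47). Il27 was just at the 2-fold line and missed it without tag set 1 (0.96), without tag set 2 (0.99) and with a minimum of 10000 gene UMIs (0.76). Il1b (0.60), Il12b (-0.02) and Ebi3 (-0.51) differed less, and the Il12b value was not stable: it was -3.56 without the 5% deepest barcodes. The median was 1.00 for the 7 genes and -0.10 for all genes. Il1rn was higher in the Vcan barcodes, at 1043 against 319 CPM (1.71), as was Nlrp3, an inflammasome sensor, at 80.8 against 40.1 CPM (1.01). At day 19 the comparison rested on 20 Vcan and 92 Gpnmb barcodes. Of 5 genes with enough UMIs, 3 were at least 2-fold higher, beside 5.2% of all genes: Il15 (2.41), Il18 (1.89) and Il1b (1.54, at 1133 against 390 CPM). Il15 missed 2-fold with a minimum of 10000 gene UMIs (0.27), and Il1b without barcodes with a Cd3 UMI (0.88). The count was 1 in the latter case and 1 after thinning, and over the alternatives Il15 ranged from 0.27 to 3.43.

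**Figure D3:**
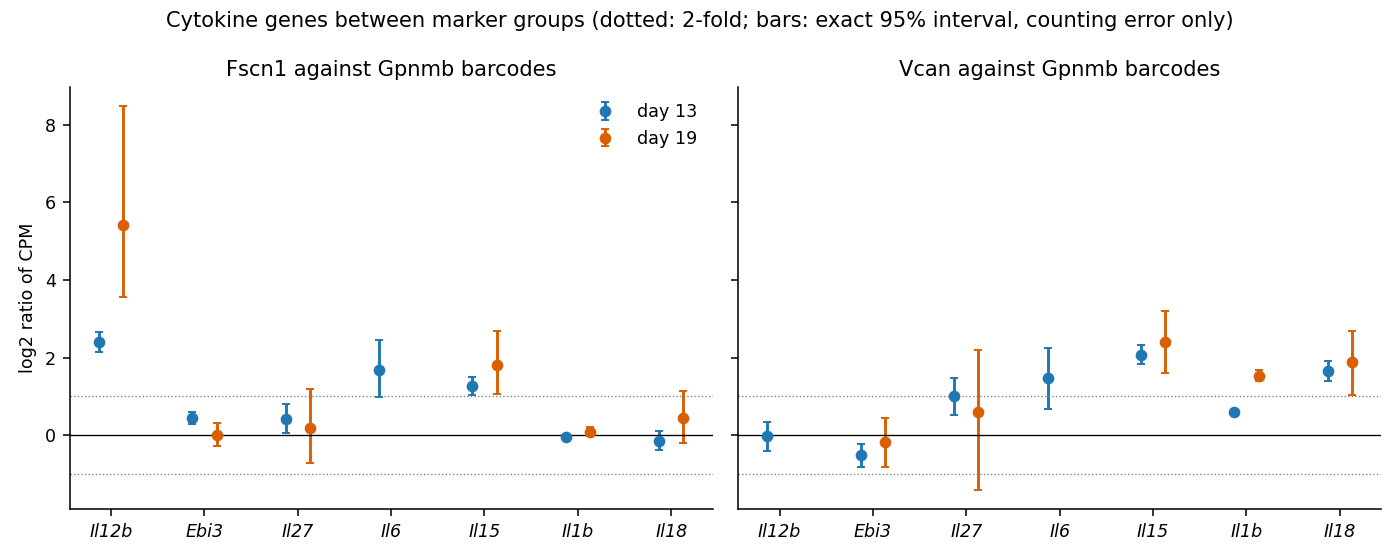
log2 ratios of CPM (y axis) for the 7 cytokine genes between marker groups, Fscn1 against Gpnmb on the left and Vcan against Gpnmb on the right, by day; bars are exact 95% intervals for counting error and dotted lines mark 2-fold. Il12b stands at 2.39 and 5.42 on the left, and Il15 at 2.07 and 2.41 and Il18 at 1.66 and 1.89 on the right. The day-19 values rest on few barcodes, and over the alternatives Il12b on the left ranged from 2.63 to 6.21 and Il15 on the right from 0.27 to 3.43.

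Surface antibody tags, which the choice of barcodes did not use, were compared within the Fscn1 barcodes between those with 2 or more and those with 0 Il12b UMIs. Of 20 tags, the class II antigen I-A/I-E, through which antigen is shown to CD4 T cells, differed most: it took a median of 4.05% of the tag UMIs in 167 barcodes with Il12b and 1.77% in 606 without at day 13, a ratio of 2.28. At day 19 the medians were 4.05% and 1.93% (40 and 205 barcodes), a ratio of 2.09. CD274, the ligand of PD-1, had ratios of 1.73 and 1.74, the costimulatory ligand CD86 1.47 and 1.20, and the dendritic integrin CD11c 1.59 and 1.04. The CD3 tag, by contrast, had ratios of 0.96 and 0.92. Il15 gave the same leading tag, with I-A/I-E at 3.58% against 1.39% at day 13 and 4.65% against 1.53% at day 19. Gene UMIs were also higher in the barcodes with Il12b, with medians of 31210 against 20835.5 at day 13 and 33855 against 30208 at day 19. Their part in these ratios was not tested.

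Between the days, 3 of the 7 genes were at least 2-fold lower at day 19 over all barcodes without a contig and 0 higher, beside a background of 3.46% of all genes lower and 4.39% higher. Il12b went from 26.7 to 11.6 CPM (log2 ratio -1.20, -1.37 to -1.04), Il6 from 3.27 to 0.884 (-1.89, -2.50 to -1.33) and Il15 from 30.6 to 14.1 (-1.12, -1.27 to -0.97). Il27 (9.22 and 5.33 CPM, -0.79), Il18 (22.4 and 14.02 CPM, -0.68) and Il1b (691 and 538 CPM, -0.36) were lower by less, and Ebi3 stood at 44.3 and 53.6 CPM (0.27). The median was -0.79 for the 7 genes and 0.02 for all genes. The marker lists of the same barcodes moved as well: the mature dendritic list stood at 1032 CPM at day 13 and 643 at day 19, the monocyte list at 4295 and 2222, the plasmacytoid dendritic list at 1701 and 951 and the macrophage list at 6513 and 7563 CPM. Free RNA was lower too in Il12b (19.7 and 7.05 CPM, -1.48) and Il15 (13.9 and 4.70 CPM, -1.56). The part of these shifts in the day values was not tested. Of the 7 partners and brakes, Il1rn was over 2-fold lower, from 307 to 128 CPM (-1.27), 0 were 2-fold higher, and the median was -0.01. Il15ra stood at 29.7 and 21.1 CPM (-0.49), Il18bp at 55.0 and 51.3 (-0.10), Il1a at 31.3 and 31.1 (-0.01) and Il1r2 at 70.6 and 122 CPM (0.79). None of the 7 processing genes passed 2-fold, with a median of -0.33, from Casp4 at -0.61 to Pycard, the inflammasome adaptor, at 0.24.

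How far the lower values of day 19 held differed by gene. In barcodes labelled by 1 multiplexing tag, which share a capture and are no replicates, Il15 ranged over the 4 tags from 41.8 to 64.9 CPM at day 13 and from 6.44 (3 UMIs) to 35.4 at day 19. The highest day-19 value has an interval of 23.1 to 51.9 CPM, which reaches into the day-13 range. Il6 had 5 to 14 UMIs per tag at day 13 (3.004 to 8.68 CPM) and 0, 2, 1 and 0 UMIs at day 19, where the upper bounds of 1.79 to 7.92 CPM reach into the day-13 range in all but 1 tag. Il12b ranged from 18.6 to 43.8 CPM and from 3.71 to 76.9 CPM. Tag set 4 of day 19 gave the highest value of all 8 (68 UMIs in 53 barcodes), of which 1 barcode held 41, and without it the set stood at 31.0 CPM (27 UMIs). Barcodes with a dominant tag were 14.3% and 22.7% of those without a contig. They were 54.8% and 41.8% of CD8 contig barcodes and 56.5% and 44.8% of CD4 contig barcodes. The median share of the top tag at day 13 was 63.2% without a contig, 59.3% in Fscn1 and 53.3% in Gpnmb barcodes. In CD8 and in CD4 contig barcodes it was 88.9%. The part of droplets with several cells in this difference was not tested. Without a Cd3 UMI (1017 and 343 barcodes) Il12b stood at 31.4 and 24.1 CPM (-0.38, -0.74 to -0.03), against -1.37 in those with one. The weaker ratio rested on 1 barcode of day 19 with 41 of the 85 UMIs: without it the level was 12.5 CPM and the ratio -1.32 (-1.81 to -0.87). Fscn1 barcodes without a Cd3 UMI (194 and 48) had Il12b at 92.8 CPM at day 13 and 125 CPM at day 19 (0.43, -0.01 to 0.85), from 174 and 65 UMIs. Of the latter, 41 were in 1 barcode, without which the level was 47.3 CPM (-0.97, -1.65 to -0.35). Without the highest barcode of each day the levels were 74.5 and 47.3 CPM (-0.66, -1.35 to -0.02). Fscn1 barcodes with a Cd3 UMI had 64.8 and 27.7 CPM (-1.23). Over all Fscn1 barcodes the mature dendritic list stood at 2884 and 1937 CPM, the macrophage list at 7888 and 9898, the monocyte list at 3523 and 1536 and the T cell list at 1568 and 2033 CPM, and a P2ry12 UMI was in 51.3% and 67.2% of them. The part of these in the Il12b value was not tested. Il12b was also less than 2-fold lower without the 5% deepest barcodes (-0.69), after thinning (-0.86) and as a mean over the 4 tags (-0.44), and Il15 in the first pair of these (-0.96 and -0.83). Il15 without a Cd3 UMI stood at 75.3 and 44.8 CPM (-0.75), Il6 at 7.92 and 2.84 (-1.48), Il27 at 19.9 and 8.23 (-1.28), and Il1b at 1214 and 1354 CPM (0.16, 0.11 to 0.21), the reverse of its sign over all barcodes.

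**Figure D4:**
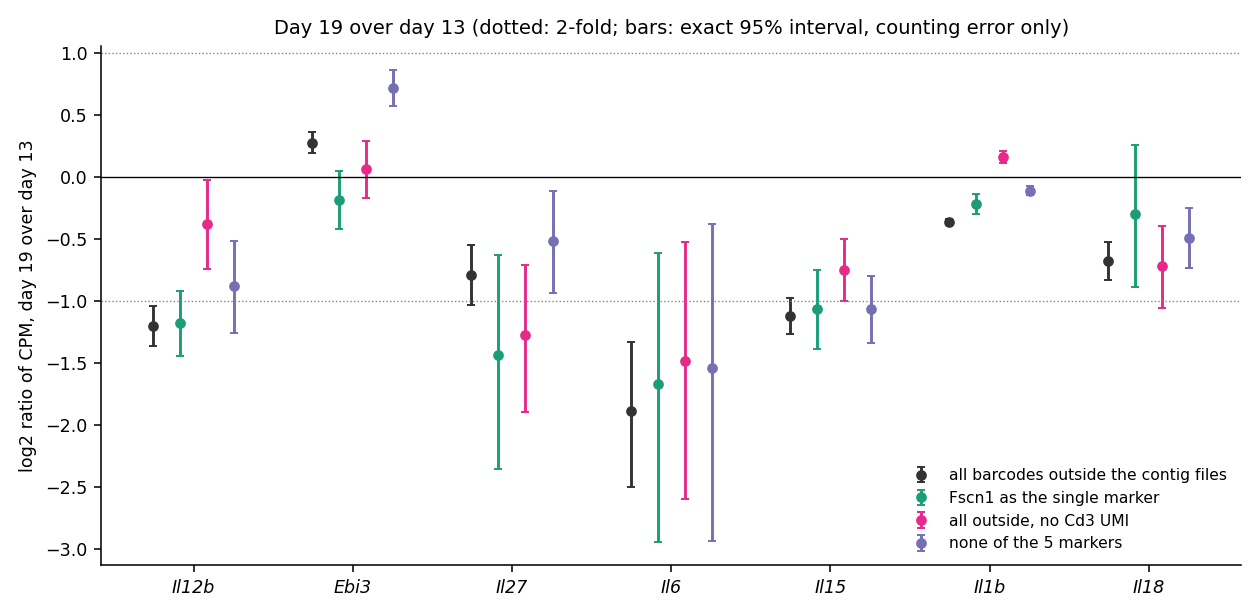
log2 ratios of CPM, day 19 over day 13 (y axis), for the 7 cytokine genes in all barcodes without a contig, in those with Fscn1 as the single marker, in those without a Cd3 UMI and in those with none of the 5 markers; bars are exact 95% intervals for counting error and dotted lines mark 2-fold. Il6 lies below the lower line in all 4 sets (-1.89, -1.67, -1.48 and -1.54), while Il12b stands at -1.20 over all and at -0.38 without a Cd3 UMI, where 1 barcode of day 19 holds 41 of 85 UMIs.

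Within the marker groups the days differed in number of genes. In Fscn1 barcodes, 1 of 7 was 2-fold lower at day 19 (3.81% of all genes), namely Il6 (-1.91), with Il12b at -0.98 and Il15 at -0.94. Without the 41-UMI barcode of day 19 Il12b was past 2-fold too (-1.21, -1.42 to -1.01). With Fscn1 as the single marker there were 4 of 7 (4.5%): Il12b (-1.18), Il27 (-1.44), Il6 (-1.67) and Il15 (-1.06). In these barcodes the mature dendritic list also stood lower, at 5492 and 3025 CPM, with Ccr7 at 2174 and 1304 and Cacnb3 at 302 and 133 CPM, and the macrophage list higher, at 3300 and 6433 CPM. In all Gpnmb barcodes 4 of 7 were lower (4.47%), with Il12b at -3.62 (465 and 8 UMIs), Il6 at -2.34 (48 and 2 UMIs, -5.43 to -0.41), Il15 at -1.25 and Il18 at -1.03. The monocyte list stood at 4466 and 1762 CPM in the same barcodes, and at 5411 and 1862 CPM where Gpnmb was the only marker. In P2ry12 barcodes 3 of 7 were lower (4.16%): Il12b (-1.04), Il6 (-2.83) and Il15 (-1.34). The 140 and 44 P2ry12 barcodes without a Cd3 UMI had 7 and 42 Il12b UMIs, a higher level at day 19 (5.42 and 101 CPM, 4.22, 3.05 to 5.62), and 41 of the 42 were in 1 barcode. The monocyte list of all P2ry12 barcodes stood at 3621 and 1578 CPM and the microglia list at 3410 and 2289. In Cd209a barcodes 2 of 7 were lower (2.84%), Il12b (-1.20) and Il18 (-1.19). In Vcan barcodes 3 of 7 were lower (5.17%), each resting on 4 UMIs or fewer at day 19: Il12b (1 UMI, -4.24, -9.56 to -1.74), Il27 (4 UMIs, -1.18, -3.10 to 0.26) and Il6 (1 UMI, -1.97, -7.34 to 0.65). The last 2 intervals include 0. The monocyte list stood at 3907 and 2423 CPM in Cd209a and at 6700 and 5250 in Vcan barcodes. Barcodes with a single marker gave other counts than the whole groups. With Cd209a alone 0 of 5 genes with enough UMIs were lower (2.83%), with a median of -0.06, and Il12b had 3 and 5 UMIs (0.761 and 3.06 CPM). With P2ry12 alone 2 of 6 were (3.7%), Il27 (-1.59) and Il15 (-1.55), while Il12b stood at -0.49 and Il6 had 18 and 1 UMIs. With Gpnmb alone 3 of 6 were (5.65%), Il12b (70 and 1 UMIs, -3.62, -8.94 to -1.09), Il15 (-1.13) and Il18 (-1.55). With Vcan alone 2 of 5 were (6.3%), Il27 (33 and 3 UMIs, -1.56, -3.91 to 0.11) and Il18 (114 and 14 UMIs, -1.13, -2.05 to -0.32). In barcodes with none of the markers 2 of 7 were lower (2.71%), Il6 (-1.54) and Il15 (-1.07), and Ebi3 stood at 28.1 and 46.2 CPM (0.72). The macrophage list of these barcodes stood at 2814 and 5082 CPM, the monocyte list at 4574 and 2696 and the microglia list at 311 and 562 CPM. The part of these list shifts in the counts by group was not tested.

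The T cells with a contig showed how far these genes, and the receptors that read them, were present on the other side. In CD8 contig barcodes 4 of the 7 cytokine genes were at least 2-fold lower at day 19 (3.16% of all genes), Il12b (7.62 and 1.86 CPM), Il27 (2.39 and 1.02), Il6 (0.843 and 0.326) and Il15 (8.11 and 2.702). In CD4 contig barcodes 2 of 7 were (2.79%), Il27 (6.75 and 2.92) and Il6 (3.07 and 1.17). The myeloid lists moved in the same barcodes: in CD8 the mature dendritic list stood at 549 and 376 CPM, the monocyte list at 3713 and 2497, the plasmacytoid dendritic list at 1094 and 528 and the macrophage list at 1245 and 1868 CPM. In CD4, in the same order, these stood at 816 and 697, 2557 and 1423, 1455 and 813, and 4805 and 5798 CPM, and their part in the counts was not tested. In contig barcodes without a UMI of the 5 markers or Lyz2, 1 of 4 genes with enough UMIs was lower in CD8 (2.79%), Il15 at 1.51 and 0.660 CPM (-1.20), and 0 of 3 in CD4 (2.91%). The medians there were -0.79 in CD8 and 0.40 in CD4. Of the 12 receptor genes, 0 of 11 with enough UMIs passed 2-fold in CD8 contig barcodes (3.29% of all genes higher and 3.16% lower) and 0 of 12 in CD4 contig barcodes (3.44% and 2.79%), with medians of -0.20 and 0.01. Il12rb2, the signalling chain of the interleukin-12 receptor, stood at 41.3 and 37.1 CPM in CD8 and at 22.1 and 42.1 CPM in CD4 contig barcodes (0.93). Among CD4 barcodes without a UMI of the 5 markers or Lyz2 its log2 ratio was 0.38 (-0.02 to 0.78). Il2rb, the shared receptor chain for interleukin-15, stood at 631 and 772 CPM in CD8 barcodes, Il18r1 at 47.5 and 39.1, Il27ra at 75.0 and 68.1 and the interleukin-6 signalling chain Il6st at 20.9 and 14.7 CPM. Il6ra in CD4 barcodes stood at 75.4 and 46.8 CPM (-0.69). Il1r1, the interleukin-1 receptor, had 7 UMIs in CD8 barcodes on each day.

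Ebi3 was also held by CD4 contig barcodes, with and without UMIs of myeloid markers. It stood at 49.0 CPM at day 13 and 89.0 at day 19 in all CD4 contig barcodes, and at 37.4 and 67.9 CPM (log2 ratio 0.86, 0.54 to 1.19) in the 387 and 359 without a UMI of the 5 markers or Lyz2. CD8 contig barcodes chosen the same way had 2.10 and 2.51 CPM. Those CD4 barcodes with a UMI of Foxp3, the regulatory T cell factor (98 and 112), had Ebi3 at 53.0 and 88.6 CPM, and those without (289 and 247) at 31.3 and 54.5 CPM. The ratios were 0.76 (0.19 to 1.32) and 0.70 (0.32 to 1.08), below 2-fold. Between the days the log2 ratios were 0.74 with Foxp3 and 0.80 without, and free RNA stood at 23.0 and 41.4 CPM of Ebi3 (0.85, 0.38 to 1.32); its part in the day ratios was not tested. Other myeloid RNA was still present in these barcodes. Il1b also stood higher with Foxp3, at 305 against 138 CPM at day 13 and 146 against 84.3 at day 19, while Il12b had 0 to 5 UMIs in each set. Free RNA, at 41.4 CPM for Ebi3 and 245 for Il1b at day 19, could not be subtracted, and its part in the difference by Foxp3 was not tested.

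**Figure D5:**
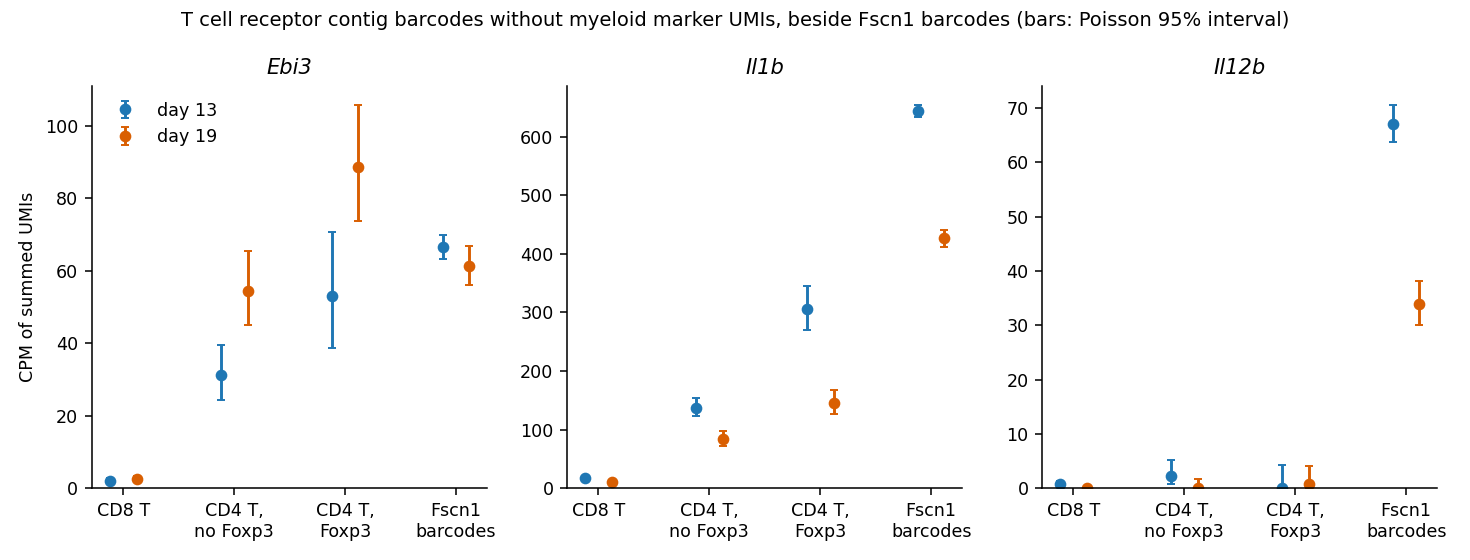
Ebi3, Il1b and Il12b (CPM of summed UMIs, y axis) in contig barcodes of CD8 T cells and of CD4 T cells without and with a Foxp3 UMI, all without myeloid marker UMIs, beside Fscn1 barcodes, by day; bars are exact Poisson 95% intervals. Ebi3 reaches 88.6 CPM in CD4 T cells with Foxp3 at day 19, above the 61.3 CPM of Fscn1 barcodes, while Il12b stays at or below 2.23 CPM in T cells.

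Across 12 points, the 5 single-marker groups and the group with none of the markers on each day, the genes most like each cytokine gene were ranked by Pearson correlation of log2(CPM + 10) over 11092 genes. The points share 2 libraries and differ in depth, and the values describe only these groups. For Il12b they were Mreg (0.98), Pakap (0.97) and Psme1 (0.97). Mreg stood at 101 CPM with Fscn1 alone at day 13 and at 0 to 5.70 CPM in the other 5 groups of that day. For Il15 they were Cers6 (0.98), March5 (0.97) and the interferon-induced GTPase Gbp5 (0.95), and for Il18 Pxk (0.98), Kalrn (0.97) and Hdc, the histamine-forming enzyme (0.95). For Il27 they were Treml4 (0.92), Il1rn (0.92) and Mdm2 (0.92), for Il6 Ncf1 (0.95), Ogfrl1 (0.95) and Atxn7l3b (0.94), for Il1b Nab1, Sulf2 and Rnf34 (each 0.96), and for Ebi3 Hlx (0.86), Dctn2 (0.85) and Ssh1 (0.84). The closest match of Ebi3 was thus the weakest of the 7.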

How the data were processed

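The authors' deposited matrices are unfiltered and hold raw UMI counts for genes and antibody tags in each barcode. Per the file headers, Cell Ranger 4 wrote them. The submitters' processing notes name Cell Ranger 4.0.0, STAR 2.7.5c, bcl2fastq 2.20, R 4.1.2, Seurat and mm10. All 14 files of the 6 samples were used. The day-13 matrix holds 144565182 gene UMIs in 736611 barcodes and the day-19 matrix 81224453 in 735849. A total of 11 barcode sequences were in use on both days among barcodes without a contig, and they were kept.

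UMIs were summed per group and day and given as CPM of all gene UMIs of the sum. Intervals are exact Poisson for CPM, exact conditional for ratios and Clopper-Pearson for shares, at 95%, and cover counting error only, so a difference has no replicate check. A gene entered a comparison at 20 or more UMIs in both sums together, and a 2-fold difference was counted. Where 1 sum was 0, no ratio was printed; with 1 to 3 UMIs the counts are given. Shares were thinned to 5000 gene UMIs, and no barcode in use was shallower. A contig barcode was taken as CD8 where Cd8a or Cd8b1 had a UMI and Cd4 had 0, and as CD4 in the reverse case. A dominant multiplexing tag held at least 80% of 10 or more tag UMIs. No doublet caller was run: leaving out barcodes with a Cd3 UMI and leaving out the 5% deepest served in its place, and doublets remain in the values.

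The 7 genes, the lists, the markers and the naming rule were chosen with earlier results of these data known. Named were the 7 genes in every group, lists of 7 partners and brakes, 7 processing genes and 12 receptors, and the 3 genes most alike to each. The splits by Foxp3, by Ccr7 and by Cd3 within a marker group, and Lyz2 and Cpa3, were chosen after values were seen. Ratios and intervals were tested on simulated data. Python 3.11.15, numpy 2.4.6, scipy 1.17.1, pandas 2.3.3 and matplotlib 3.10.9 were used. Alternatives were other minimums of depth, mitochondrial share and marker UMIs, thinning, exclusive markers, equal weights for tag sets and leaving out each tag set. Others, chosen after seeing the data, were the Fscn1 side without P2ry12 or with Ccr7, fixed group shares, a limit of 20 UMIs per barcode and leaving out the barcode with the most Il12b UMIs.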

Additional observations from a re-analysis of the deposited data

Results flagged for a closer look

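Over all Vcan and all Gpnmb barcodes, Il1b moved in opposite directions between the days, which did not hold without a Cd3 UMI. In Vcan barcodes it stood at 894 CPM at day 13 and 991 at day 19, a log2 ratio of 0.15 (0.01 to 0.28), and in Gpnmb barcodes at 660 and 383 CPM, a ratio of -0.79 (-0.87 to -0.70). The difference between these ratios was not tested, since each day is 1 capture. The Vcan value rests on 23 barcodes at day 19, and it was -0.04 (-0.20 to 0.12) where Vcan was the only marker and -0.27 (-0.50 to -0.05) in Vcan barcodes without a Cd3 UMI. Without a Cd3 UMI both groups stood lower at day 19, Vcan at 1388 and 1150 CPM and Gpnmb at 839 and 692 CPM (96 and 12 barcodes). With a Cd3 UMI, Vcan stood at 785 and 912 CPM and Gpnmb at 646 and 363 CPM.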

How the results depend on the processing

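Over 18 alternatives, the count of genes 2-fold apart between the days was 3 in all but 3: it was 2 without barcodes with a Cd3 UMI (Il6 and Il27), 1 without the 5% deepest barcodes and 1 after thinning to 5000 gene UMIs, where Il6 was past 2-fold, Il12b stood at -0.69 and -0.86 and Il15 at -0.96 and -0.83. Both settings lower the weight of large barcodes by construction. As a mean over the 4 tag sets the 3 genes were Il6, Il15 and Il1b (-1.01), with Il12b at -0.44. Leaving out each tag set gave 3 to 3. Only 608 of 4246 barcodes at day 13 and 329 of 1452 at day 19 were assigned to a tag set. Most barcodes thus stayed in every such run, and the counts, here and for the marker groups below, could change little. For Fscn1 against Gpnmb no count moved past 1.5 times over 17 alternatives a day (2 to 3 at day 13, 2 to 2 at day 19; without each tag set 3 to 3 and 2 to 2). For Vcan against Gpnmb the counts without each tag set were 3 to 4 at day 13 and 3 to 3 at day 19, and the day-19 count of 3 was 1 without barcodes with a Cd3 UMI and 1 after thinning; the cause was not tested. Without the day-19 barcode with the most Il12b UMIs, the Il12b ratio without a Cd3 UMI was -1.32 in place of -0.38, and -1.13 (7 and 1 UMIs) in place of 4.22 in P2ry12 barcodes. Over the other alternatives the day ratio of Il12b ranged from -1.45 to -0.38, of Il15 from -1.43 to -0.75, of Il6 from -3.46 to -1.48, and of Il1b from -1.01 to 0.16. Il12b between Fscn1 and Gpnmb ranged from 1.22 to 3.47 at day 13 and from 2.63 (a marker minimum of 1 UMI) to 6.21 at day 19, and Il15 between Vcan and Gpnmb at day 19 from 0.27 (a minimum of 10000 gene UMIs) to 3.43. Tag sets with equal weight were run for the days only, since some sets held no Vcan or Gpnmb barcodes at day 19. No paired analysis was possible because each day is 1 sample and the replicate numbers only follow accession order. Few barcodes limit Vcan at day 19 (23 barcodes), and few UMIs limit Il6 at day 19 (29 UMIs).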
